A study of Saccharomyces cerevisiae with 32 samples.

Results

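The comparison set 4 consecutive samples of an oscillating yeast culture, taken at phase angles of 196.36 to 233.77 degrees (the later window), against the 4 samples before them, taken at 146.49 to 183.9 degrees (the earlier window). Members were chosen by their labelled time alone: 8 of the 32 arrays of the series, 4 labelled 11.07 to 11.27 h and 4 labelled 10.8 to 11 h, with every S. cerevisiae gene of the array read on each. Both windows came from the same culture of CEN.PK113-7D, a MATa laboratory strain of budding yeast, with no mutation or treatment added to either. The cells grew at 30 °C and pH 4.0 in a fermenter fed continuously with glucose medium, and the dissolved oxygen of the culture rose and fell with a period of about 2 h. A pellet from 0.5 ml was frozen every 4 min, so that neighbouring samples lay 12.5 degrees apart on a cycle of 360 degrees and the centres of the windows lay 49.9 degrees, or 16 min, apart. The sources used here do not say where 0 degrees lies relative to oxygen uptake. The 4 samples of a window are time points, not replicate cultures: the spread inside a window holds its own course, neighbouring samples are not independent, and each p-value measures only that spread.

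Budding yeast in dense continuous culture can alternate between a phase of high respiration and a phase of low respiration, and much of its messenger RNA cycles with it. Genes for ribosome assembly, ribosomal proteins and amino acid synthesis, which are costly to run and are tied to growth, are known to peak in a shared part of such cycles, and genes for mitochondria, reserve carbohydrates and stress protection in others. Sulfur metabolism, which supplies methionine, cysteine and the methyl donor S-adenosylmethionine, is among the pathways best known to oscillate in this system. In many such cultures only part of the cells enter the division cycle in each metabolic cycle, so cyclins and replication genes can oscillate as well.

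The arrays were Affymetrix Yeast Genome 2.0 arrays, and the authors' linear probe set intensities were the starting point. The 8 arrays resembled each other, with correlations between 0.961 and 0.997 and median signals between 1523 and 1983. The median signal of fission yeast probe sets, which should find no target, was 5.7 to 8 on these arrays. MATa genes such as STE2, the receptor for alpha pheromone, gave deposited signals of 773 to 10787, and the 4 MATalpha genes measured gave 56.5 to 1152, above that background in every sample. The running number in the sample descriptions averaged 23.2 (range 19 to 28) in the later window and 14.5 (range 5 to 24) in the earlier one, and the log2 ratio of the ACT1 control probe set at the end of the transcript to the set at its start, a sign of RNA integrity, was 0.26 to 0.36 in the later window and 0.21 to 0.28 in the earlier window. With the running number as a covariate 868 genes were higher and 1116 lower, and the part of RNA integrity was not tested.

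Most genes of ribosome assembly and of sulfur metabolism were higher in the later window, and most genes of the G1/S boundary, reserve carbohydrate and the mitochondrial ribosome were lower. Of 5377 genes tested, 898 were higher in the later window (16.7%) and 1187 were lower (22.1%), by limma with Benjamini-Hochberg adjusted p under 0.05, and 3292 were not called. Large changes ran mostly upward: 83 genes called were at least 2-fold higher (1.54%) and 7 at least 2-fold lower (0.130%). Of the 83, 34 were ribosome biogenesis genes, 10 belonged to sulfur metabolism, 4 were subunits of RNA polymerase I or III, and 31 were in none of the 43 gene lists. The 7 were CLB6, RPL41A, ALD3, PCL1, CSI2, TOS4 and AXL2. The median difference over all genes was -0.04 on the log2 scale, the median of the genes called higher was 0.36 and that of the genes called lower was -0.26. In 918 genes every value of the later window lay above every value of the earlier one (17.1%), and in 1114 genes every value lay below (20.7%).

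How many genes passed depended on the scaling and on single samples. Without scaling between arrays 441 genes were higher and 142 lower, so that the higher share of the calls was 75.6%, against 43.1% after quantile normalization. Each fit that leaves out a sample holds 7. Leaving out the sample at 233.77, 221.3 or 158.96 degrees left 486, 493 or 530 genes higher and 542, 584 or 603 lower, and leaving out the sample at 208.83 or 146.49 degrees left 775 or 788 lower. Genes beyond the largest rises and falls and the leading members of each list were named after their values were seen, to show the roles a list holds. All levels given below are normalized log2 signals, and per-sample values follow the order of time, from 196.36 to 233.77 degrees and then from 146.49 to 183.9 degrees.

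MUP1, the high-affinity methionine permease, had the largest rise. Its log2 level was 10.08, 10.84, 11.30 and 11.52 in the later window, against 8.02, 7.97, 8.67 and 9.33 in the earlier window. Every later value lay above every earlier one, and the difference was 2.44 ± 0.38 (SE), or 5.43-fold, with an adjusted p of 0.00813 by limma. Over the 32 samples its lowest level was at 134.03 degrees and its highest at 11.09 degrees.

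DBP3, an RNA helicase of large-subunit assembly, read 10.06, 10.54, 10.73 and 10.86 in the later window and 8.12, 8.59, 9.07 and 9.64 in the earlier one, a difference of 1.70 ± 0.32. UTP14, a component of the complex that processes small-subunit ribosomal RNA, read 9.30, 9.39, 9.76 and 9.81, against 6.66, 7.64, 8.49 and 8.87 in the earlier window (1.65 ± 0.43, adjusted p 0.0213). In both genes the earlier window climbed more steeply than the later one, by a wider margin in UTP14 than in DBP3. UTP14 lost its call when the sample at 221.3, 233.77 or 158.96 degrees was left out.

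TRM11, a tRNA methyltransferase, read 8.01, 8.50, 8.62 and 8.62 in the later window and 6.01, 6.74, 7.09 and 7.46 in the earlier window (1.61 ± 0.29). NOP13, a nucleolar RNA-binding protein, was higher by 1.60 ± 0.30 and KRE33, an acetyltransferase of ribosomal and transfer RNA, by 1.57 ± 0.42. URA7, which makes CTP for RNA synthesis, was higher by 1.54 ± 0.18, RPA49 of RNA polymerase I by 1.54 ± 0.35, and MMP1, the permease for S-methylmethionine, by 1.54 ± 0.20. NOG1, a GTPase of large-subunit assembly, was higher by 1.50 ± 0.36, MET14, which phosphorylates activated sulfate, by 1.45 ± 0.19, and RIX1, another large-subunit assembly factor, by 1.43 ± 0.22. The 12 were chosen among called genes whose windows did not overlap. Of these, KRE33 also lost its call without the sample at 208.83, 221.3, 233.77 or 158.96 degrees.

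CLB6, a cyclin of the entry into DNA replication, had the largest fall. Its log2 level was 8.26, 7.73, 7.50 and 7.51 in the later window, against 9.83, 9.39, 8.88 and 8.89 in the earlier window. The difference was -1.50 ± 0.25, with an adjusted p of 0.00838 by limma, and no value of the later window reached the earlier one. CLB6 peaked at 59.22 degrees and was lowest at 283.64 degrees over the 32 samples, so both windows lay on its way down.

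PCL1, a cyclin partner of the kinase Pho85 in G1, read 10.03, 10.04, 9.46 and 9.23 in the later window and 11.10, 11.07, 10.64 and 10.53 in the earlier one (-1.15 ± 0.22). PCL9, another Pho85 cyclin, read 10.53, 10.32, 10.02 and 9.71 in the later window and 11.04, 11.10, 11.02 and 10.90 in the earlier window (-0.87 ± 0.16). PCL9 was level through the earlier window and dropped at each later sample. ALD3, a cytosolic aldehyde dehydrogenase, differed by -1.16 ± 0.21, and the paralogs TOS4 and PLM2, which carry a forkhead-associated domain, by -1.03 ± 0.17 and -0.85 ± 0.16. AXL2, a membrane protein that marks the axial bud site, differed by -1.03 ± 0.18, TOS2, a protein of the bud neck, by -0.94 ± 0.22, and SPO16, a protein of meiotic chromosome synapsis, by -0.89 ± 0.23. CSI2 differed by -1.13 ± 0.23, and 2 genes with systematic names, YBR071W and YMR030W-A, by -0.93 ± 0.15 and -0.83 ± 0.19. SPO16 was not called without the sample at 221.3, 233.77 or 158.96 degrees, and YMR030W-A was not called without scaling.

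**Figure D1:**
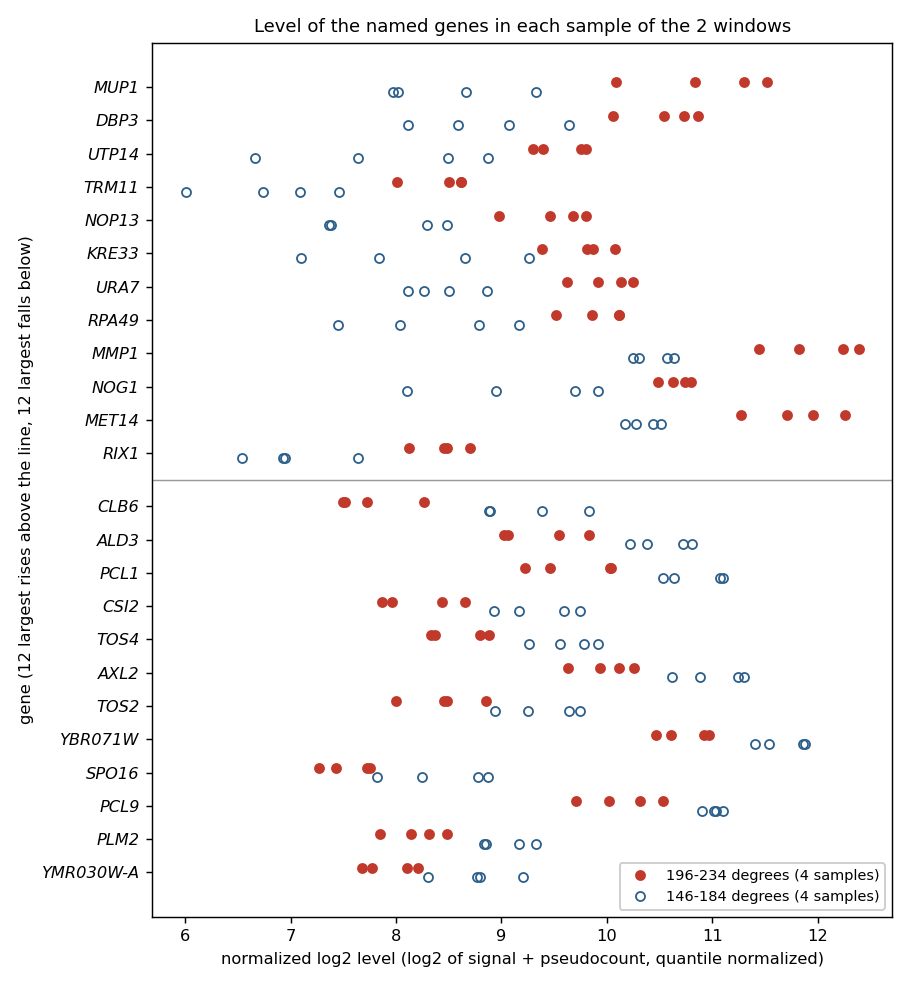
Normalized log2 level of the 12 genes with the largest rise and the 12 with the largest fall, 1 point per sample, with filled points for the later window and open points for the earlier one. Only genes whose 4 and 4 points do not overlap were eligible, and MUP1 (2.44) and CLB6 (-1.50) have the largest differences.

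Ribosome biogenesis genes rose nearly as a body. Of 80 members, all tested, 76 were higher and 0 lower, beside 16.7% higher and 22.1% lower among all genes, and the median difference was 0.91, against -0.04 over all genes. The 4 without a call were ESF1 (-0.25), SPB4 (0.22), ESF2 (0.26) and UTP22 (0.31). The mean log2 level of the list was 9.79, 10.01, 10.12 and 10.15 in the later window, against 8.62, 8.92, 9.29 and 9.57 in the earlier window. The later values were close together and the earlier ones far apart, with no overlap. The list had its lowest mean at 134.03 degrees (8.37) and its highest at 34.29 degrees (12.61), so the later window stood well below the peak. Fewer members passed without the sample at 221.3, 233.77 or 158.96 degrees (48, 47 and 48), and 31 passed when all 32 samples shared 1 estimate of spread.

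The machinery that transcribes ribosomal and transfer RNA genes moved with it. Of 20 subunits of RNA polymerase I and III or their factors, 17 were higher and 0 lower, with a median difference of 0.49. RPA49 and RPA135, both of polymerase I, had the largest rises (1.54 ± 0.35 and 1.34 ± 0.24). RPA135, the second largest subunit, read 11.40, 11.70, 11.82 and 11.93 in the later window and 9.77, 10.21, 10.60 and 10.92 in the earlier one. Of polymerase III subunits, RET1 was higher by 0.61 ± 0.08 and RPC11 by 0.19 ± 0.05. RRN3, the initiation factor of polymerase I, differed by 0.03 and was not called, nor were RPA34 (0.66) and RPC17 (0.37). With all 32 samples sharing 1 estimate of spread 3 of the 20 passed.

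Cytosolic ribosomal protein genes were higher by less. Of 127 members, 90 rose and 1 fell, with a median difference of 0.20. RPS26B read 11.89, 11.98, 12.08 and 12.11 in the later window and 10.69, 10.91, 11.26 and 11.52 in the earlier window, a difference of 0.92 ± 0.16, and RPL13A was higher by 0.71 ± 0.17. The gene that fell was RPL41A (-1.43 ± 0.44), whose windows overlapped and which was read from a probe set that can match more than 1 gene, as were 24 of the 127. The count of rises was 20 without scaling, 45 with array medians set equal and 7 with poly-A controls set equal, with medians of 0.14 to 0.20 under all scalings tried. It was 54, 39, 40 and 41 without the samples at 208.83, 221.3, 233.77 and 158.96 degrees.

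Other parts of translation shifted the same way. Of 30 initiation and elongation factors 18 were higher and 0 lower (median 0.23), led by YEF3, the fungal elongation factor that clears the exit site of the ribosome (0.66 ± 0.11), and TIF4631, the scaffold of the cap-binding complex (0.61 ± 0.13). Of 19 cytosolic aminoacyl-tRNA synthetases 12 were higher and 0 lower (median 0.29), led by the prolyl enzyme YHR020W (0.76 ± 0.19) and FRS2, a subunit of the phenylalanyl enzyme (0.50 ± 0.10). These counts were 4 and 4 with poly-A controls set equal, and the factors gave 8 to 10 without the sample at 208.83, 221.3, 233.77 or 158.96 degrees.

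Mitochondrial ribosomal proteins went the opposite way. Of 72 members tested 0 were higher and 50 lower, with a median difference of -0.27, and all 72 differences were negative. YML6, a large-subunit protein, read 10.78, 10.82, 10.78 and 10.67 in the later window and 11.43, 11.23, 11.11 and 11.02 in the earlier one (-0.43 ± 0.08), and MRPS17, of the small subunit, differed by -0.41 ± 0.10. The mean of the list was 11.62, 11.59, 11.57 and 11.50 in the later window, against 12.01, 11.91, 11.75 and 11.67 in the earlier window, so the later window was lower throughout and flatter. Without scaling 3 members were called, and leaving out 1 sample gave 13 to 66, with the lowest counts without the sample at 233.77 (13), 158.96 (18), 221.3 (19), 208.83 (24) or 146.49 degrees (25).

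**Figure D2:**
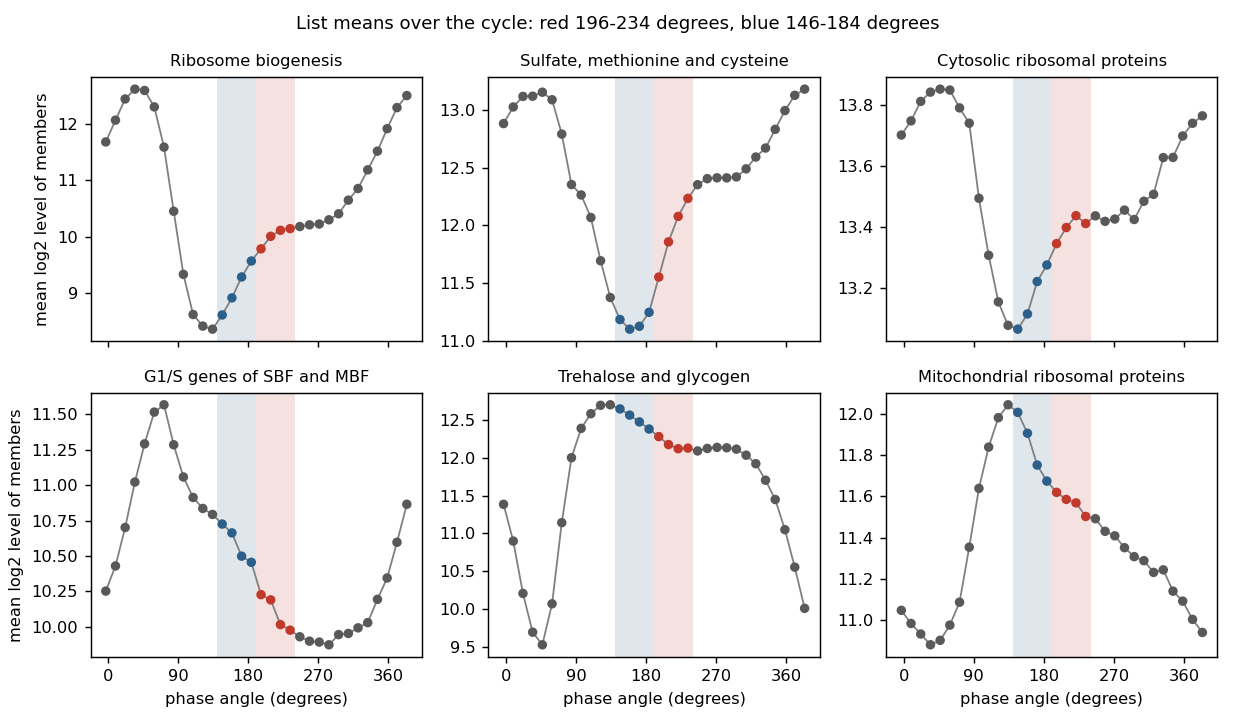
Mean log2 level of 6 gene lists in each of the 32 samples against phase angle in degrees, with the samples of the later window in red and those of the earlier one in blue. Ribosome biogenesis climbs through the earlier window and flattens in the later one, the sulfur mean is near level in the earlier window and climbs in the later one, and the 3 lists of the lower row that fell are lower throughout the later window.

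Sulfur metabolism was the other large riser. Of 30 genes of sulfate assimilation and of methionine and cysteine synthesis and uptake, 22 were higher and 0 lower, with a median difference of 0.82. The count of rises lay between 19 and 24 under all alternatives tried. The mean log2 level of the list was 11.55, 11.86, 12.08 and 12.23 in the later window and 11.19, 11.10, 11.13 and 11.25 in the earlier window. The mean of the earlier window held the lowest value of the 32 samples (11.10, at 158.96 degrees), and each later sample was higher than the one before it.

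Of the permeases besides MUP1 and MMP1, which had the 2 largest differences of the list, the sulfate transporters SUL2 and SUL1 were higher by 1.32 and 0.68 and the low-affinity methionine permease MUP3 by 0.98. In the assimilation of sulfate into sulfide, MET14 (1.45), MET16 (0.97) and MET5 (0.92) were higher, as were MET8 (1.06) and MET1 (1.04), which make the siroheme cofactor of sulfite reductase, and MET22 (0.57). MET3, which activates sulfate in the first step, differed by -0.48 and MET10, the partner subunit of MET5, by 0.48, and neither was called.

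MET14, adenylylsulfate kinase, read 11.28, 11.71, 11.96 and 12.26 in the later window, against 10.44, 10.17, 10.28 and 10.52 in the earlier window. The earlier values stayed within a narrow band and the later ones climbed steadily, with no overlap.

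Downstream, MET2, which acetylates homoserine, was higher by 1.37, STR3 and CYS3, enzymes that cleave cystathionine, by 1.27 and 0.95, and CYS4, which makes it, by 0.67. The S-adenosylmethionine synthetases SAM1 and SAM2 were higher by 0.87 and 0.75. MET28 (1.03) and MET32 (0.76), cofactors of the activator Met4, and MET30 (0.62), which restrains Met4, also rose, as did HOM3 (1.12) and MET13 (0.21). MET17 (0.28) and MET6 (0.22), which carry out the last steps to homocysteine and methionine, were not called, and neither were STR2 (0.06), SAH1 (-0.01), HOM6 (-0.08) and HOM2 (-0.11).

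Other amino acid pathways rose by less. Of 58 genes 34 were higher and 0 lower, with a median difference of 0.30. LYS4, the homoaconitase of lysine synthesis, read 11.58, 11.86, 11.98 and 12.13 in the later window and 10.72, 10.79, 11.10 and 11.27 in the earlier one (0.92 ± 0.15), and LEU9, an isopropylmalate synthase, was higher by 0.73 ± 0.13. With poly-A controls set equal 16 of the 58 passed, and without scaling 20.

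Nitrogen uptake and the use of poor nitrogen sources also shifted upward, with 15 of 30 genes higher and 2 lower (median 0.21). MEP2, the high-affinity ammonium permease, read 12.06, 12.47, 12.73 and 12.93 in the later window and 11.44, 11.17, 11.24 and 11.51 in the earlier window (1.21 ± 0.18). AGP1, a broad amino acid permease, was higher by 0.76 ± 0.23, and the catabolic genes UGA1 (-0.25 ± 0.06) and CAR2 (-0.13 ± 0.04) were lower. The count of rises was 8 without scaling or with poly-A controls set equal, and 9 without the sample at 233.77 or 158.96 degrees.

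Members of nucleotide synthesis differed in direction. Of 28 genes 15 were higher (53.6%, beside 16.7% of all genes) and 6 lower (21.4%, beside 22.1%), with a median difference of 0.15. The share called lower was near that of all genes. Among the rises were the pyrimidine genes URA7 (1.54), URA1 (1.01) and URA2 (0.41), AAH1, adenine deaminase (1.41 ± 0.23), and the guanine nucleotide genes GUA1 (0.68), IMD3 (0.65) and IMD4 (0.37). In the pathway that builds purines from the start, ADE17 (-0.70 ± 0.12), ADE13 (-0.50), ADE1 (-0.47) and ADE6 (-0.22) fell, the folate enzyme ADE3 rose by 0.19, and ADE2 (-0.13), ADE4 (-0.08), ADE8 (-0.33), ADE12 (-0.06) and ADE16 (-0.08) were not called. IMD2, which can share its probe set with a near-identical copy, fell by 0.82, and URA10, the minor orotate phosphoribosyltransferase, by 0.26. ADE17 read 12.84, 12.63, 12.62 and 12.67 in the later window and 13.67, 13.52, 13.30 and 13.06 in the earlier one, flat in the later window after a descent through the earlier one. Rises numbered 8 and falls 2 without scaling, and falls numbered 2 or 3 without the sample at 221.3, 233.77, 146.49 or 158.96 degrees.

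Ergosterol synthesis, which makes the main sterol of yeast membranes, had 14 of 23 genes higher and 1 lower (median 0.19), led by ERG3, a sterol desaturase (0.51 ± 0.13), and IDI1, an isomerase of isoprenoid units (0.48 ± 0.14). The gene that fell was HMG2, a hydroxymethylglutaryl-CoA reductase (-0.22 ± 0.05). With poly-A controls set equal 0 members were called higher, and without scaling 3, with medians of 0.12 to 0.18, and 5 to 9 without the sample at 208.83, 221.3, 233.77, 146.49 or 158.96 degrees. In gluconeogenesis, the glyoxylate cycle and their activators 7 of 19 were higher and 0 lower (median 0.10), led by the succinate-fumarate carrier SFC1 (0.55 ± 0.13) and the carnitine acetyltransferase YAT2 (0.50 ± 0.11), and 3 or 4 passed without the sample at 221.3, 233.77 or 158.96 degrees. Without scaling 2 passed, with poly-A controls set equal 1, and with all 32 samples sharing 1 estimate of spread 0.

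Genes of the start of the division cycle were the list with the largest fall. Of 35 genes driven by the factors SBF and MBF at the G1/S boundary, 31 were lower and 1 higher, with a median difference of -0.44. The mean log2 level was 10.23, 10.19, 10.02 and 9.98 in the later window and 10.73, 10.66, 10.50 and 10.46 in the earlier window. It went down through both windows without overlap, from a peak at 71.69 degrees (11.57) to a low at 283.64 degrees (9.87). The culture was measured in bulk, so fewer cells at a stage and less RNA per cell cannot be told apart.

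Besides CLB6 and PCL1, the G1 cyclins CLN1 (-0.66) and CLN2 (-0.60) fell, as did RNR1, the large subunit of ribonucleotide reductase (-0.69), MCD1, a cohesin subunit (-0.73), CDC21, thymidylate synthase (-0.66), and POL30, the sliding clamp of DNA polymerases (-0.44). MNN1, a mannosyltransferase of the Golgi, was the member that rose (0.20 ± 0.06), and PRI1 (-0.04), NRM1 (-0.11) and TOF1 (-0.42) were not called. Without scaling 19 members were called lower, with a median of -0.41.

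Other division lists had fewer calls. Of 30 spindle and kinetochore genes 16 were lower and 0 higher (median -0.20), with the kinesin KIP1 and the Aurora kinase partner SLI15 each at -0.44. Without scaling 0 of the 30 were called, and 9 or 8 without the sample at 233.77 or 158.96 degrees. Of 19 genes of the G2/M cluster named after CLB2, 1 was higher and 4 lower (21.1%, beside 22.1% of all genes): the cyclin CLB1 rose by 0.24 ± 0.08, and KIN3 (-0.53 ± 0.10) and SPO12 (-0.50 ± 0.12) had the largest falls. Of 21 septin and bud site genes 2 were higher and 5 lower (23.8%), and of 9 histone genes 4 were lower, the largest at -0.24 ± 0.07 (HHT2). The shares of the G2/M and septin lists were near that of all genes. Without scaling 1 fall was called in each of these 2 lists and 0 among the histones.

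Reserve carbohydrate genes fell together. Of 21 genes of trehalose and glycogen metabolism 19 were lower and 0 higher, with a median difference of -0.30. PGM2, phosphoglucomutase, read 13.17, 13.01, 12.94 and 12.87 in the later window and 13.97, 13.80, 13.63 and 13.39 in the earlier one (-0.70 ± 0.12). GSY1, a glycogen synthase, differed by -0.63 ± 0.12, and the other synthase GSY2 by -0.50. Enzymes that build and enzymes that break down these stores moved alike: GDB1 (-0.60) and GPH1 (-0.46), which degrade glycogen, and TSL1 (-0.52) and TPS1 (-0.30), which make trehalose, were all lower. GLG2 (-0.09) and PIG1 (-0.12) were not called.

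The list's mean was 12.28, 12.18, 12.12 and 12.13 in the later window and 12.65, 12.57, 12.48 and 12.38 in the earlier window, both windows without overlap just past the highest mean of the 32 samples (12.70, at 134.03 degrees). Without scaling 8 of the 21 were called, and 1 when all 32 samples shared 1 estimate of spread. Without the sample at 208.83, 221.3, 233.77, 146.49 or 158.96 degrees 11 or 12 were called.

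Stress and quality control genes were lower by smaller amounts. Of 28 heat shock proteins and chaperones 17 were lower and 2 higher (median -0.14), and falls numbered 8 without scaling, 9 with poly-A controls set equal and 0 with all 32 samples sharing 1 estimate of spread. HSP30, a membrane heat shock protein, differed by -0.62 ± 0.12 and SSE2, an exchange factor for Hsp70 chaperones, by -0.42 ± 0.07. The members that rose were SSB2 (0.50 ± 0.12) and SSB1 (0.28 ± 0.05), the chaperones that sit on translating ribosomes, and SSB1 was read from a probe set that can match more than 1 gene. HSP12 (0.05) and HSP26 (0.03) were not called. Of 25 stress regulators and kinases 13 were lower and 4 higher, with USV1, a zinc finger factor (-0.53 ± 0.09), and MIG2, a glucose repressor (-0.46 ± 0.09), lowest and RAS1, a GTPase of the cyclic AMP pathway, highest (0.53 ± 0.10). Of 34 autophagy genes 12 were lower (35.3%, beside 22.1% of all genes) and 2 higher. ATG41 rose most (0.82 ± 0.10) and ATG29 fell most (-0.57 ± 0.13). Of 36 proteasome genes 12 were lower (33.3%) and 0 higher, the largest at -0.29 ± 0.05 (RPN14). The median difference was -0.13 for autophagy and -0.10 for proteasome genes, against -0.04 over all genes.

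Without scaling the stress regulators gave 3 falls and the autophagy and proteasome genes 0 each, and proteasome genes gave 5 to 7 when any sample but those at 196.36 and 183.9 degrees was left out. Autophagy genes gave 7 falls without the sample at 233.77 degrees. With all 32 samples sharing 1 estimate of spread, falls numbered 0 among stress regulators, 0 among autophagy genes and 1 among proteasome genes. Of 37 cell wall genes 11 were lower (29.7%, beside 22.1% of all genes) and 1 higher. Their median difference was -0.07, against -0.04 over all genes. CRH1, which links chitin to glucan, had the largest fall (-0.74 ± 0.11), and 6 or 7 members fell without the sample at 221.3, 233.77 or 146.49 degrees. The falls numbered 5 without scaling and 5 with poly-A controls set equal.

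For respiratory genes the share called lower was near that of all genes. Of 38 respiratory chain and ATP synthase genes 1 was higher and 9 lower (23.7%, beside 22.1% of all genes), with a median of -0.02, against -0.04 over all genes. COX5B, the hypoxic form of a cytochrome oxidase subunit, had the largest fall (-0.70 ± 0.14). QCR8 was also called lower, with a mean of 10.10 in the later window and 10.60 in the earlier one. Of 20 glycolytic genes 1 was higher and 2 lower: HXK2, the main hexokinase, rose by 0.40 ± 0.09, and EMI2, a hexokinase-like protein, fell by 0.58. Without scaling 1 respiratory gene was called lower, and 3 to 5 were without the sample at 208.83, 221.3, 233.77, 146.49, 158.96 or 171.43 degrees. Of 15 genes of the tricarboxylic acid cycle 1 was higher and 2 lower, none of these by more than 0.14. Of 10 genes commonly used as references 0 were called in either direction by limma and 0 had an unadjusted p under 0.05, with differences from -0.08 (TUB1) to 0.06 (UBC6).

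**Figure D3:**
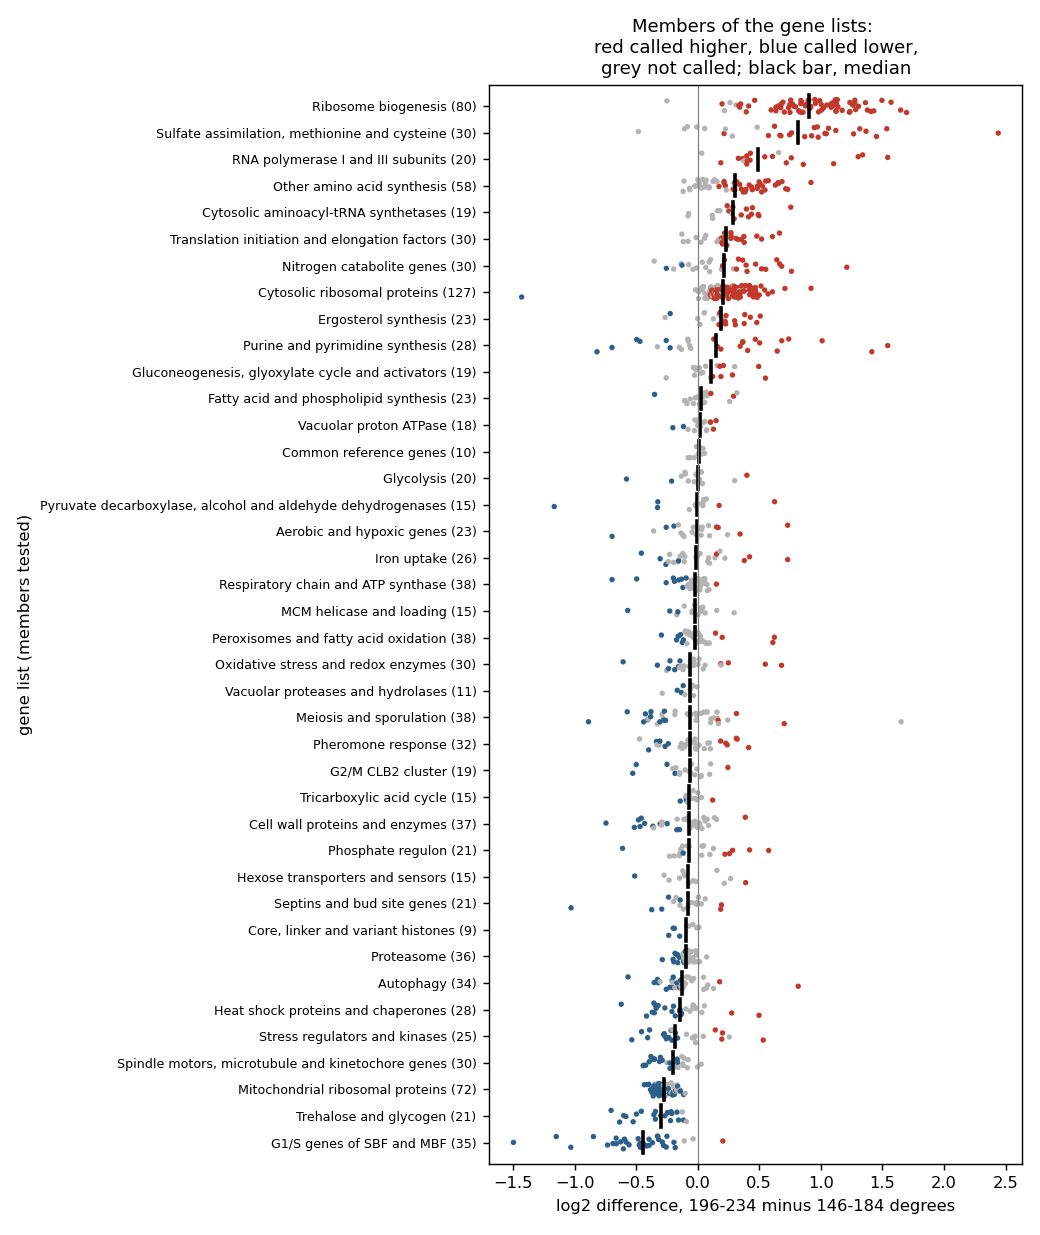
Log2 difference of each tested member, later minus earlier window, for 40 gene lists ordered by their median, with red points called higher, blue points called lower and grey points not called. Ribosome biogenesis (median 0.91) and sulfur metabolism (0.82) stand at the top, and the G1/S genes (-0.44) and trehalose and glycogen (-0.30) at the bottom.

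Whether levels were settling was read from the slope inside each window in log2 units per 10 degrees. The windows were set by time but picked for description with earlier results known, so these slopes are not independent of that choice. Over all genes the median size of the slope was 0.024 in the later window and 0.038 in the earlier window, and it was smaller in the later window in 3506 of 5377 genes (65.2%). By limma 89 slopes were called in the later window (1.66%; 1.19% rising and 0.465% falling) and 1160 in the earlier one (21.6%; 11.0% rising and 10.5% falling). The difference of the slopes was called in 157 genes (2.92%), with 70 positive (1.30%) and 87 negative (1.62%). In 128 of the 157 the slope was smaller in size in the later window, and in 81 it changed sign. A straight line through the 8 samples left less residual than the 2 window means in 3766 genes (70.0%), a comparison of sizes with no test that includes the genes with no called difference.

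In the ribosome biogenesis list the median slope was 0.09 in the later window and 0.27 in the earlier one, and 10 later slopes and 74 earlier slopes were called as rising. The slopes differed by the test in 27 of 80 members and 53 did not pass. URB2, a nucleolar protein of ribosome assembly that is in none of the lists, read 9.64, 9.84, 9.83 and 10.05 in the later window and 7.46, 7.86, 8.95 and 9.54 in the earlier window. Its slope was 0.10 in the later window and 0.59 in the earlier one, a difference of -0.49 ± 0.06 (adjusted p 0.0265, limma). UTP14 had slopes of 0.15 and 0.60 in the same order (-0.45 ± 0.07) and NOG1 slopes of 0.07 and 0.50 (-0.42 ± 0.07).

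Subunits of RNA polymerase I and III had median slopes of 0.05 in the later window and 0.15 in the earlier one, with 3 differences called, and ribosomal proteins had 0.02 and 0.05, with 8. Mitochondrial ribosomal proteins fell with a median slope of -0.03 in the later window and -0.09 in the earlier one, where 55 of 72 slopes were called, but the difference was called in 1 member. Trehalose and glycogen genes had -0.04 and -0.07 and the G1/S genes -0.06 and -0.08, with 1 and 0 differences called.

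Most sulfur genes rose through the later window. The median slope was 0.20 in the later window and 0.03 in the earlier window, and 20 of the 30 later slopes were called as rising. Of the earlier slopes 8 were called as rising and 5 as falling (MET3, MET6, MET10, MET17 and SAM1), so the near-level mean of the earlier window held members that went both ways. The slopes differed in 8 members, MET3, MET6, MET10, MET17, MET32, SAM1, STR3 and SUL1, all with a higher slope in the later window. In 7 of the 8 the fitted slope was negative in the earlier window and positive in the later one, and in STR3 it was positive in both.

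MET3 read 9.88, 10.32, 10.56 and 10.87 in the later window, against 11.60, 11.28, 10.52 and 10.17 in the earlier window. It fell through the earlier window, had its lowest level of the 32 samples at 196.36 degrees and climbed from there, so the windows overlapped and their means did not differ by the test (-0.48 ± 0.33, adjusted p 0.277). Its slopes were 0.26 in the later window and -0.40 in the earlier one, a difference of 0.66 ± 0.05 (adjusted p 0.0158, limma).

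SAM1 read 10.88, 11.53, 11.83 and 12.15 in the later window and 11.32, 10.78, 10.38 and 10.45 in the earlier one, with slopes of 0.33 and -0.24 (difference 0.57 ± 0.07). SUL1 read 12.32, 12.54, 12.99 and 13.22 in the later window and 12.43, 12.02, 11.94 and 12.00, with slopes of 0.25 and -0.11 (0.36 ± 0.05). In both genes the first earlier value lay above the first later one, so the windows overlapped. The description of this step as a settling into a plateau does not cover the sulfur list, whose median slope was higher in the later window. Without scaling between arrays 1 difference of slopes was called over all genes, 0 slopes were called in the later window and 157 in the earlier one.

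**Figure D4:**
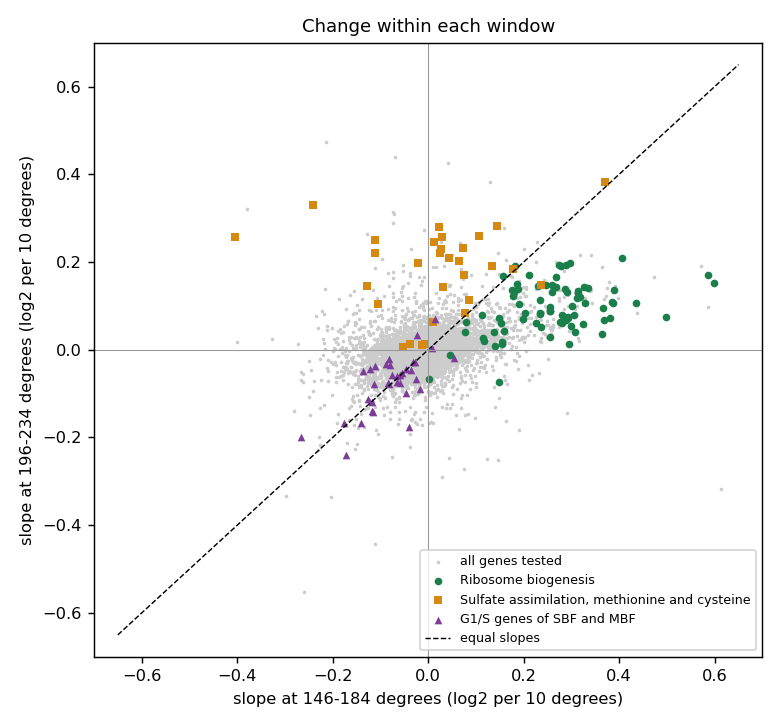
Slope of each tested gene in the later window (vertical axis) against its slope in the earlier window (horizontal axis), in log2 units per 10 degrees, with the line of equal slopes dashed. Most ribosome biogenesis genes (median slopes 0.09 and 0.27) lie below the line on the right, and most G1/S genes (-0.06 and -0.08) lie near it. Most sulfur genes (0.20 and 0.03) lie above it, some of them close to it, and HOM3 lies below.

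**Figure D5:**
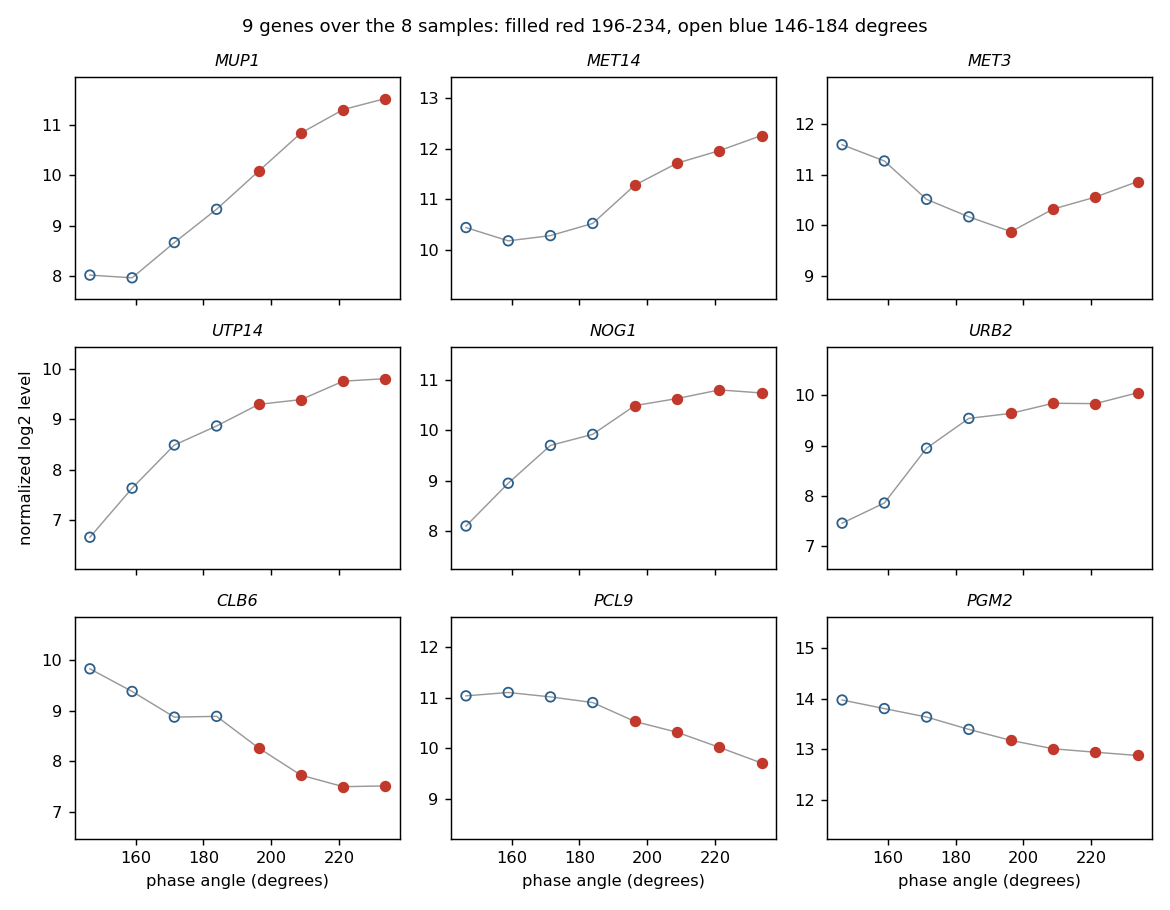
Normalized log2 level of 9 genes in the 8 samples against phase angle in degrees, with filled points for the later window and open points for the earlier one and the same height of axis in each panel. UTP14, NOG1 and URB2 flatten in the later window, MET3 turns at 196.36 degrees, and CLB6, PCL9 and PGM2 decline.

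The step was set against its neighbours in fits of 12 samples. The median size of the difference between windows was 0.135 for the preceding step (the earlier window minus the 4 samples before it), 0.135 for this step and 0.0706 for the following one (the next 4 samples minus the later window). The neighbouring steps share 4 samples with this one, so their values are given side by side. In the preceding step 735 genes were higher (13.7%) and 659 lower (12.3%), and in the following step 39 were higher (0.725%) and 48 lower (0.893%). These counts rest on a spread shared by all 12 samples of a fit. They are not comparable with the 898 and 1187 called for this step in the fit of 8 samples.

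The median step of the ribosome biogenesis list was 0.48 in the preceding step, 0.91 in this one and 0.21 in the following one. The sulfur list had -0.59, 0.82 and 0.52 in the same order, the G1/S list -0.32, -0.44 and -0.15, and the mitochondrial ribosomal proteins -0.04, -0.27 and -0.15. Ribosomal proteins had -0.11, 0.20 and 0.02. The medians of the sulfur and ribosomal protein lists had opposite signs in the preceding step and this one. This was not particular to them. Other lists that turned included aminoacyl-tRNA synthetases (-0.30 and 0.29), other amino acid synthesis (-0.27 and 0.30) and nucleotide synthesis (-0.41 and 0.15). Nitrogen genes (-0.19 and 0.21) turned upward as well, and proteasome genes (0.17 and -0.10) turned downward.

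By limma 0 genes passed the test of the difference between this step and the preceding one, with 1333 at an unadjusted p under 0.05 (24.8%), and 0 passed against the following step, with 1282 (23.8%). The genes that came nearest against the preceding step were SUL1, MEP2 and YGR273C upward and YDR222W, SIC1 and ASH1 downward, each with an adjusted p of 0.0747. MEP2 differed by 1.21 in this step and -1.88 in the preceding one, and SIC1, the inhibitor of S-phase cyclin kinase, by -0.56 and 0.18. Against the following step they were EFG1, RPS16B, RPS14B, RFX1, TCB1 and SNX41, each with an adjusted p of 0.0975. EFG1, a nucleolar protein of ribosomal RNA maturation, differed by 0.72 in this step and -0.15 in the following one, and RFX1, a repressor of DNA damage genes, by -0.38 and 0.04.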

How the data were processed

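Total RNA of 32 samples of 1 culture was hybridised to Affymetrix Yeast Genome 2.0 arrays, and the 8 arrays of the windows were compared. The authors deposited linear intensities for each probe set, made with GCOS per the submitters' processing notes. The sources used here state neither its version nor its algorithm or scaling. Gene names came from GEO's platform annotation and the S. cerevisiae R64 table. Of 10928 probe sets 5498 named 1 S. cerevisiae gene. To each signal 1.9 was added (percentile 10 of the table) before log2, and values were quantile normalized over these probe sets on all 32 arrays. Each of 5449 genes was read from its brightest probe set, and 5377 were tested because their mean exceeded 4.44, which is percentile 95 over 1746 fission yeast probe sets. The number of arrays limits the precision.

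R 4.3.3 and limma 3.58.1 (lmFit, eBayes) compared the windows with 6 residual degrees of freedom, fitted slopes inside each window, and set the step against its neighbours in 12 samples. P-values were adjusted over all 5377 genes, and genes under 0.05 were called. The scripts were tested on simulated data. The 12 largest rises and falls among called genes with no overlap and a probe set naming 1 gene are named, with up to 2 called members per list and direction and the 3 largest contrasts per direction. The window, the 43 lists and their members were chosen with earlier results of these data known; the lists hold 1231 tested genes, and no set test was run. Alternatives covered the scaling, pseudocount, low-signal filter, probe sets of a gene, samples in the fit, a covariate, a straight line and each sample left out. Promoter sequences were not analysed here. Of the lists, 40 are drawn, 2 of mating type check the strain, and 1 is not reported here.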

Additional observations from a re-analysis of the deposited data

Results flagged for a closer look

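For gene list means and for genes named by their rise, fall, slope or step, 164 groups of 4 values were looked at. By Dixon's 95% criterion for 4 values 2 groups held a value far from the rest, where chance alone gives about 1 in 20. SUL1 stood at 12.43 in the first earlier sample, at 146.49 degrees, against 11.94 to 12.02 in the others of the earlier window. YDR222W stood at 9.38 at 158.96 degrees, against 9.22 to 9.24 in the others of that window.

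In 6 genes the slope per 10 degrees differed most between the windows, by the limma test of the difference itself. In the later minus the earlier window it was higher by 0.66 in MET3, 0.57 in SAM1 and 0.36 in SUL1, and it differed by -0.49 in URB2, -0.45 in UTP14 and -0.42 in NOG1. The first 3 are sulfur genes and the other 3 act in ribosome assembly.

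Outside the named genes, 416 of 3470 probe sets without a gene name (12.0%) lay above the fission yeast background. Their median difference was -0.08, and by limma 0 were called higher and 0 lower in a fit of their own. Among those with the largest differences, -1.38, -1.02 and 1.20 had the lowest adjusted p (0.0535 each). The probe set at -1.38 had a mean of 3.68 in the later window, below the low-signal limit of 4.44, and 5.07 in the earlier one.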

How the results depend on the processing

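No paired analysis was possible because the samples are successive time points and carry no replicate numbers in the labels. After quantile normalization 898 genes were higher and 1187 lower in the later window. The counts were 441 and 142 without scaling, 402 and 523 with poly-A controls set equal, and 294 and 278 with all 32 samples as 8 windows. Leaving out 1 sample gave 486 to 984 higher and 542 to 1346 lower. Slopes called in the later window numbered 89, against 0 without scaling, 31 with array medians set equal and 58 without the low-signal filter. Slopes called in the earlier window numbered 1160, against 157 without scaling and 758 with poly-A controls set equal. Differences of slopes numbered 157, against 1 without scaling. Against the preceding step 0 genes were called, and 5 with array medians set equal. The cause of these shifts was not tested. Of 2085 called genes, 573 kept call and direction without scaling and 896 with poly-A controls set equal, with 25 and 10 turned. Among the 149 genes named by the fixed rule, 0 of those called turned direction under any alternative. Turns in named genes without a call were not counted. Medians of lists kept their sign except lists near 0: 7 lists turned with array medians set equal and 10 without scaling. The 4 arrays per window and their signal over background limit the rest.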

Other observations

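Among the 4146 genes tested outside the lists 524 were higher and 912 lower. Among all 5377 genes tested 898 were higher (16.7%) and 1187 lower (22.1%), and the counts outside the lists are not read as a result. The following genes were chosen after their values were seen. RKI1, ribose-5-phosphate isomerase, stood 1.42 ± 0.20 higher in the later window. Some genes of ribosome maturation outside the lists, picked by their values, were also higher. The helicase ROK1 differed by 1.37 ± 0.27 and YVH1, which acts in large-subunit maturation, by 1.41 ± 0.27. MTR4, a helicase of the nuclear exosome, differed by 1.29 ± 0.30. SAM3, the permease for S-adenosylmethionine, was higher by 1.10 ± 0.19, and BAS1, an activator of adenine and histidine genes, by 0.67 ± 0.12.

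Several genes that handle glycine or folate were among those lower, picked by their values and not from a list. GCV1 and GCV2, of the glycine cleavage system, differed by -0.78 ± 0.14 and -0.37 ± 0.08, SHM2, cytosolic serine hydroxymethyltransferase, by -0.48 ± 0.15, and MTD1, a folate dehydrogenase, by -0.51 ± 0.14. All of these passed the limma test, and GCV3 (-0.13) and SHM1 (0.09) did not. GAD1, glutamate decarboxylase, differed by -0.73 ± 0.11, and the vitamin B6 genes SNZ1 and SNO1 by -0.57 ± 0.13 and -0.69 ± 0.20. HO, the mating-type switching endonuclease gene, differed by -0.63 ± 0.08.

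Of 463 genes tested that have a systematic name alone, 36 were higher (7.78%) and 109 lower (23.5%), beside 16.7% and 22.1% of all genes.

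The lists not yet counted stand beside 16.7% of all genes higher and 22.1% lower. In meiosis and sporulation 3 of 38 were higher and 11 lower, in peroxisomes and fatty acid oxidation 4 of 38 and 6, in pheromone response 6 of 32 and 5, and in oxidative stress and redox enzymes 4 of 30 and 7. Iron uptake had 4 of 26 higher and 4 lower, aerobic and hypoxic genes 4 of 23 and 3, fatty acid and phospholipid synthesis 2 of 23 and 1, and the phosphate regulon 5 of 21 and 2. The vacuolar proton ATPase had 3 of 18 higher and 2 lower, hexose transporters and sensors 1 of 15 and 1, pyruvate decarboxylase with alcohol and aldehyde dehydrogenases 2 of 15 and 3, MCM helicase and loading 0 of 15 and 3, and vacuolar proteases 0 of 11 and 3. Without scaling each of these gave at most 2 calls per direction. The 3 largest rises called in them were HMX1, a heme oxygenase (0.73 ± 0.13), MND1, a meiotic recombination gene (0.70 ± 0.20), and GSH1, the first enzyme of glutathione synthesis (0.68 ± 0.13). MND1 was near the background: its mean was 4.35 in the earlier window, below the low-signal limit of 4.44, and 5.06 in the later one.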
